A study of Mus musculus with 4 samples.

Results

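The mRNAs described here encode the protein import machinery of mitochondria and the chaperones that fold imported proteins. They were chosen by name among the protein-coding genes of the table: every Tomm or Timm gene followed by a number, together with Dnajc15, Dnajc19, Pam16, Grpel1, Grpel2, Hspa9, Hspd1, Hspe1, Samm50, Chchd4, Gfer, Mtx1, Mtx2, Mtx3, Pmpca, Pmpcb and Romo1. The rule used no measured value and found 39 genes among the 15746 genes listed, which lie on 19 chromosomes. Tomm6, Tomm20l and Timm8a2 also carry such names in the annotation and were not analysed here. Total RNA of hearts from adult wild-type mice was sequenced in 2 libraries of the mitochondrial fraction, labelled isolated mitochondria, and in 2 libraries of the rest fraction, labelled tissue minus mitochondria. All 4 libraries share the heart tissue and the genotype WT, and the study set the fractions against each other to find long noncoding RNAs located in heart mitochondria.

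The fractions have limits as models of a compartment. In the study's methods the rest fraction is the low-speed pellet of cell debris from the homogenate, which holds nuclei and unbroken tissue, and not a cleared cytosol. The mitochondrial pellet was described as treated with digitonin and RNase A before RNA isolation, and a fragmentation time of its own was used for the mitochondrial RNA, so that treatment and fraction cannot be told apart. Neither the labels nor the methods state whether the libraries came from separate hearts or pooled ones, and p-values measure only the spread between these libraries.

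Nearly all mitochondrial proteins are made in the cytosol from nuclear genes and cross the mitochondrial membranes as unfolded chains. The TOM complex is the gate of the outer membrane, the SAM complex places barrel-shaped proteins in that membrane, and small TIM chaperones carry hydrophobic chains through the intermembrane space. The TIM22 complex inserts carrier proteins into the inner membrane, whereas the TIM23 complex passes proteins with a presequence towards the matrix, where the import motor built around the chaperone mortalin pulls them in, the processing peptidase removes the presequence, and the chaperonin Hsp60 with its lid Hsp10 folds them. In heart muscle, mitochondria fill a large part of the cell. The values below are RNA levels and say nothing on the amount of the proteins.

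Several of the transcripts that stood highest in the mitochondrial fraction have a very short coding sequence, and 4 of the small TIM chaperones and Romo1 are printed to show how short they are. The small TIM chaperones carry cysteines in a twin motif, a pair of cysteines with 3 residues between them that occurs at 2 places and forms disulfide bonds in the intermembrane space. The codons of these cysteines are in capitals, and 14 codons lie between the pairs in Timm8b and Timm13, 16 in Timm10 and 15 in Timm9. Romo1 was searched for the same motif and its coding sequence holds 0 such pairs. The sequences run from the start codon without the stop codon on the strand of the gene, joined over exons of GRCm38 from the GENCODE annotation, and span 249, 285, 270, 267 and 237 bases.
Timm8b (83 codons, gene at chr9:50603910-50605320, plus strand): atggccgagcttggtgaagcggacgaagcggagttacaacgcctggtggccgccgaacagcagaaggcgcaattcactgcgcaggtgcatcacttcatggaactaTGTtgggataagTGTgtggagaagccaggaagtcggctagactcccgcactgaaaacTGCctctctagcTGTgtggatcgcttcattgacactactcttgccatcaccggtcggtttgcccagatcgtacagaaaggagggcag
Timm13 (95 codons, gene at chr10:80899450-80900969, minus strand): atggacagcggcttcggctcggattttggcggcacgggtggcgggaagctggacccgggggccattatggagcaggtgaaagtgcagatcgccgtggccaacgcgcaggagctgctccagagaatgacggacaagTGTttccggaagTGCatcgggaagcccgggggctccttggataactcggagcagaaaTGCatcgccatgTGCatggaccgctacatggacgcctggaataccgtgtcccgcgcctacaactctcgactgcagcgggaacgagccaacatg
Timm10 (90 codons, gene at chr2:84826997-84830213, plus strand): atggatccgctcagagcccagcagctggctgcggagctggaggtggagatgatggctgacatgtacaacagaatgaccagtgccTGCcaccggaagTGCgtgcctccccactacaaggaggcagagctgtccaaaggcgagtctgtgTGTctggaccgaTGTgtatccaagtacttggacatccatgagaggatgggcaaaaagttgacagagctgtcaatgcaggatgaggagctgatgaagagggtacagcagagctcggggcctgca
Timm9 (89 codons, gene at chr12:71123173-71136684, minus strand): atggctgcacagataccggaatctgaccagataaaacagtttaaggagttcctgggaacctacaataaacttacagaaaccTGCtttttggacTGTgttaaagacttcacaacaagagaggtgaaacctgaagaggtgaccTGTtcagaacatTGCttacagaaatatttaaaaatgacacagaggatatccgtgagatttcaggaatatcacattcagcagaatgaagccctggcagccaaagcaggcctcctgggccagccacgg
Romo1 (79 codons, gene at chr2:156144039-156145797, plus strand): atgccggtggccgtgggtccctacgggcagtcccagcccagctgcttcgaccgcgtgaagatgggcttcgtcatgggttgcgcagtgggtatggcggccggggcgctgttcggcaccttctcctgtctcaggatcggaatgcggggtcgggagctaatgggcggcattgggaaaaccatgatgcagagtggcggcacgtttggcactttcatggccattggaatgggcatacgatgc

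The deposited values are normalized counts, that is, reads on a gene's exons divided by the size factor of that library. Genes of the mitochondrial chromosome took up 97.6% and 93.5% of each mitochondrial library's total, compared with 63.2% and 67.5% of each rest library's. A single read was worth 3.87 (replicate 1) and 2.55 (replicate 2) normalized counts on the mitochondrial side, compared with 0.264 and 0.365 on the rest side, so that low values are coarser in the mitochondrial fraction, where 3 reads amount to 11.6 and 7.65 normalized counts. Against the labels, the 13 mitochondrially encoded mRNAs lay above both rest libraries in both mitochondrial libraries, with 6 of the 13 past the test described below. The nuclear RNAs Malat1, Neat1 and Kcnq1ot1 lay below both rest libraries, with 0 of the 3 past the test (adjusted p from 0.0522 to 0.0551 by limma). Of all genes tested, 2.16% were higher and 1.39% lower. The 9 cardiomyocyte markers were all listed and had sums of 416485 and 316764 normalized counts on the mitochondrial side, compared with 570754 and 506336 on the rest side, so that both mitochondrial sums lay below both rest sums. These sums were dominated by Myh6 (174838 and 128576 against 184487 and 161461) and Ttn (126054 and 100863 against 330174 and 295269). Most of the list went the other way: both mitochondrial libraries lay above both rest libraries in 6 markers and below in 2. One marker overlapped, and the median log2 fold change of the list was 0.88. The sums of the other marker lists also differed between the fractions: 6 endothelial markers from 1341 to 1499 in the mitochondrial and from 2369 to 2678 in the rest libraries, 6 fibroblast markers from 3550 to 8382 and from 2236 to 3180, 5 macrophage markers from 210 to 371 and from 127 to 156, 3 smooth muscle markers from 136 to 441 and from 598 to 1416, and 5 red blood cell markers from 50 to 341 and from 440 to 824. The smooth muscle marker Cnn1 and the red blood cell marker Alas2 were at 0 in mitochondrial replicate 1, and 0 of 3 adipocyte markers were listed. The part of these lists in the results that follow was not tested.

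The 39 import and chaperone genes gave sums of 8246 and 6719 normalized counts for the mitochondrial replicates, against 4156 and 4230 for the rest replicates. Both mitochondrial sums lay above both rest sums, with means of 7483 ± 1080 and 4193 ± 52.3 (SD, n = 2 each), a ratio of 1.80. As a share of all normalized counts on nuclear protein-coding genes, the group took 0.378% and 0.366% on the mitochondrial side and 0.207% in each rest library. Hspa9 alone made up 35.3% to 39.2% of the group's sum in every library. Without Hspa9 the sums were 5016 and 4344 against 2614 and 2602. A two-sided exact permutation test of 2 against 2 libraries cannot give a p below 0.333, and no test was run on the sums. Because the values are relative within a library, more of these RNAs and less of other nuclear RNAs in a fraction cannot be told apart.

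**Figure D1:**
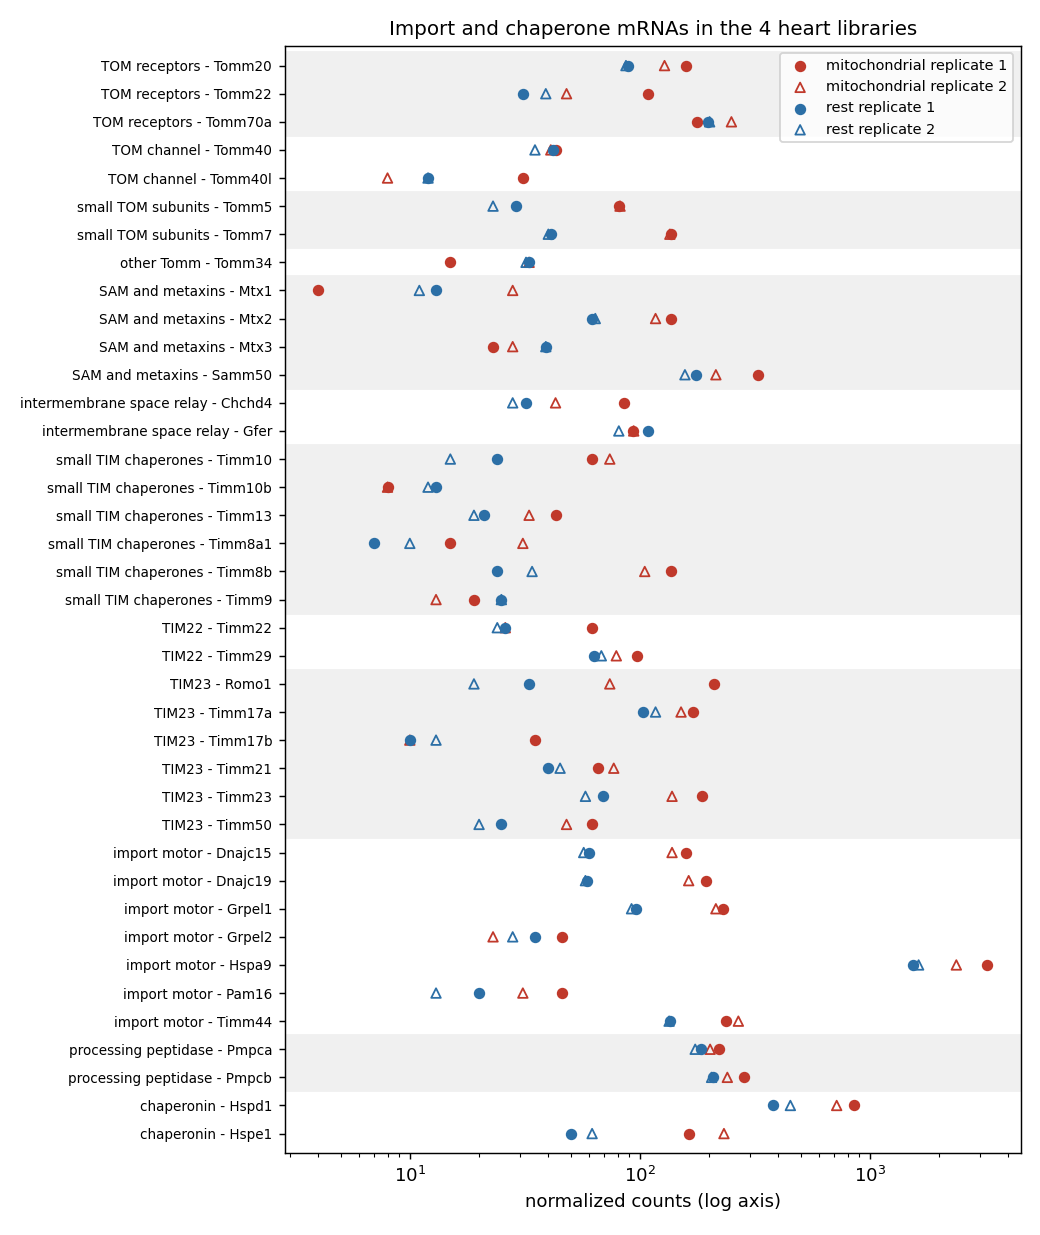
Normalized counts (log axis) of the 39 import and chaperone genes, ordered by role, in mitochondrial (red) and rest (blue) replicates 1 (circles) and 2 (triangles). As scaled by the authors, in 27 genes both red symbols lie to the right of both blue ones, in 3 they lie to the left, and in 9 the fractions overlap.

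All 39 genes passed the filter on low values, 10 or more normalized counts in 2 or more libraries. In limma's moderated test on log2 of the normalized count plus 1, with adjustment over 12150 genes, 6 of the 39 were higher in the mitochondrial fraction at an adjusted p under 0.05, against 2.16% of all genes tested. They were Tomm7, Dnajc19, Timm8b, Grpel1, Hspe1 and Dnajc15. None of the 39 was lower, where 1.39% of all genes were, and 0 were lower at an unadjusted p under 0.05, with 20 higher. Of all genes tested, 16.2% were lower and 14.1% higher at that unadjusted limit. Both mitochondrial libraries lay above both rest libraries in 27 of the 39 genes, against 27.7% of all genes tested. Both lay below in 3, Timm9, Timm10b and Mtx3, against 33.4% of all genes tested. The median log2 fold change was 0.81 over the group and -0.14 over all genes tested, and 33 of the 39 values were positive. Fold changes on this scale understate the change of low genes.

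The calls rest on all 4 libraries. Leaving out either mitochondrial replicate or either rest replicate left 0 of the 6 calls, and 0 calls among all 12150 genes, with 19 and 26 of the 39 genes higher at an unadjusted p under 0.05 without mitochondrial replicate 1 and 2 (15.6% and 19.2% of all genes tested) and 10 without either rest replicate (4.86% and 5.31%). The direction also depends on the scaling: relative to each library's total less the mitochondrial chromosome the median log2 fold change was -0.06, with -0.98 for all genes tested, and relative to the full library total it was -3.06, with -3.93 for all genes tested. The numbers of the 39 called higher and lower were then 0 and 2, and 0 and 39, in place of 6 and 0, where 31.4% and 98.9% of all genes tested were lower. Under both, the group's median stayed above that of all genes, by 0.92 and 0.87. A scaling shifts the fold changes of all genes by nearly the same amount, so that this gap could hardly change. Statements that a gene was higher hold for the scaling as deposited.

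**Figure D2:**
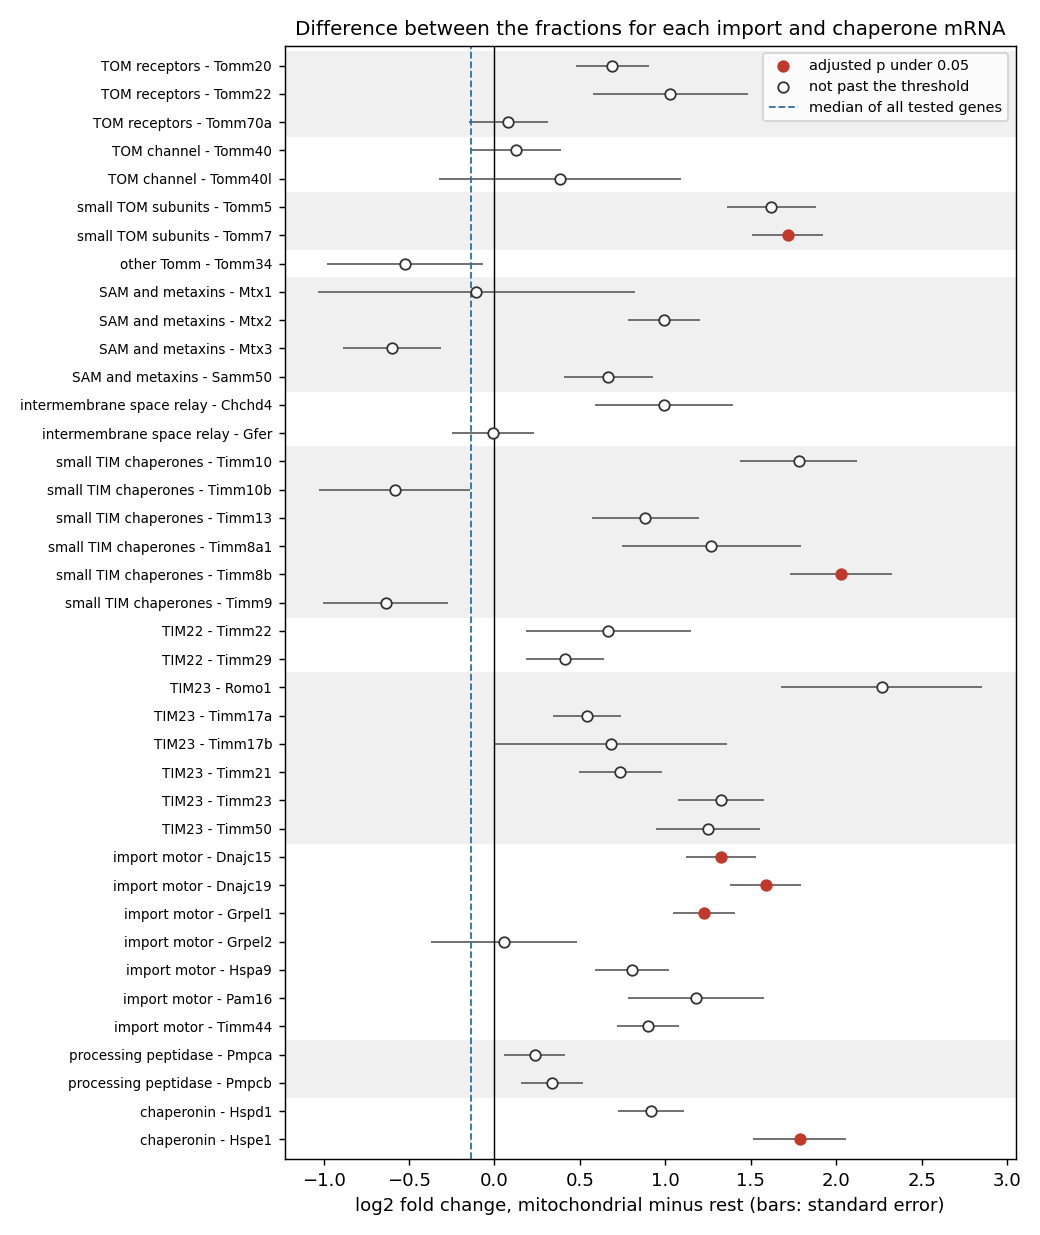
Log2 fold change of each gene as scaled by the authors, mitochondrial minus rest, with its standard error (bars), grouped by role. The 6 filled points passed an adjusted p of 0.05, and the dashed line at -0.14 is the median of all tested genes.

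At the outer membrane, both small TOM subunits had larger log2 fold changes than any receptor or channel gene, and a difference between these groups was not tested. Tomm7, a small subunit that tunes the stability of the complex, was at 136 and 135 normalized counts in the mitochondrial libraries, with 41 and 40 in the rest libraries. The replicates nearly coincided within each fraction, and the fractions were far apart. With 35 and 53 reads behind the mitochondrial values, so close a match is no measure of their precision. The log2 fold change was 1.72 (SE 0.208) with an adjusted p of 0.0427 in limma's test, a 3.35-fold difference of the means. Tomm5, another small subunit, was at 81 and 82 against 29 and 23, from 21 and 32 mitochondrial reads. It also kept clear of the rest libraries, with a log2 fold change of 1.62 and an adjusted p of 0.0511 by limma, just short of the threshold.

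The receptors that recognize proteins bound for mitochondria gave a mixed picture. Tomm20, the presequence receptor, was at 159 and 128 normalized counts in the mitochondrial libraries, with 89 and 87 in the rest libraries, without overlap and with an adjusted p of 0.118 by limma. Tomm22, the central receptor, was at 108 and 48 against 31 and 39, with its mitochondrial replicates 2.25-fold apart. Tomm70a, the receptor for carrier proteins handed over by cytosolic chaperones, was at 178 and 250 against 198 and 201, so that one mitochondrial replicate lay below and the other above the rest libraries. Its log2 fold change was 0.08 (adjusted p = 0.834 by limma).

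Tomm40, the channel itself, overlapped between the fractions with 43 and 41 against 42 and 35 normalized counts (log2 fold change 0.13, adjusted p = 0.768 by limma). Its relative Tomm40l was at 31 and 8 against 12 and 12, a level set by 8 and 3 reads in the mitochondrial libraries. Per kilobase of exon, the ratio of Tomm7 to Tomm40 was therefore 12.7 and 13.2 in mitochondrial replicates, compared with 3.92 and 4.58 in rest replicates, and the fractions did not overlap. Tomm34, a cytosolic cochaperone that shares the name, was at 15 and 33 against 33 and 32, and its low value in mitochondrial replicate 1 rests on 4 reads.

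Of the genes for insertion of barrel proteins into the outer membrane, 0 of 4 passed the test. Among all genes tested, 2.16% were higher and 1.39% lower, so that this count says little about the 4 genes. Samm50, the channel of the SAM complex, was at 325 and 214 normalized counts in the mitochondrial libraries against 175 and 157 in the rest libraries (log2 fold change 0.67, adjusted p = 0.173 by limma). Mtx2, a metaxin on the cytosolic face of that complex, was at 136 and 117 against 62 and 64, with a log2 fold change of 0.99 and an adjusted p of 0.0654 by limma. Both lay above the rest libraries in both mitochondrial libraries. Mtx3, a metaxin of the same family, had the opposite order with 23 and 28 against 39 and 39 (log2 fold change -0.60, adjusted p = 0.231 by limma). The ratio of Mtx2 to Mtx3 per kilobase was 12.1 and 8.58 in the mitochondrial and 3.26 and 3.37 in the rest libraries. Mtx1 was at 4 and 28 against 13 and 11, where the mitochondrial values stand for 1 and 11 reads, and no order can be read from it.

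In the intermembrane space, the disulfide relay oxidizes cysteine-rich proteins such as the small TIM chaperones and thereby traps them there. Chchd4, the oxidoreductase that meets the incoming chain, was at 85 and 43 normalized counts in the mitochondrial libraries against 32 and 28 in the rest libraries (log2 fold change 0.99, adjusted p = 0.182 by limma). Gfer, the sulfhydryl oxidase that reoxidizes it, was at 93 and 94 against 109 and 81, from 24 and 37 mitochondrial reads. The mitochondrial values of Gfer sat between the rest values, and its log2 fold change was -0.01 (adjusted p = 0.985 by limma).

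The small TIM chaperones, some of whose coding sequences are printed above, went in both directions. Timm8b, a partner of Timm13, was at 136 and 105 normalized counts in the mitochondrial libraries, with 24 and 34 in the rest libraries. Behind the mitochondrial values stood 35 and 41 reads. Every mitochondrial value was more than 3 times every rest value, and the log2 fold change was 2.03 (SE 0.298, adjusted p = 0.0469 by limma), or 4.16-fold between the means. Timm10, which forms a ring with Timm9 to carry metabolite carriers, was at 62 and 74 against 24 and 15, without overlap, from 16 and 29 mitochondrial reads. Its log2 fold change was 1.78, with an adjusted p of 0.0600 by limma. Timm9 had the opposite order, 19 and 13 against 25 and 25 (log2 fold change -0.64, adjusted p = 0.305 by limma), from 5 reads in each mitochondrial library.

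Timm13 was at 43 and 33 normalized counts against 21 and 19, and Timm8a1, whose human counterpart is mutated in a deafness and dystonia syndrome, was at 15 and 31 against 7 and 10. Both kept clear of the rest libraries, with log2 fold changes of 0.88 and 1.27 and adjusted p of 0.149 and 0.187 by limma. They too rest on few mitochondrial reads, 11 and 13 in Timm13 and 4 and 12 in Timm8a1. Timm10b, which ties the small chaperones to the TIM22 complex, was at 8 and 8 against 13 and 12, and the 8 normalized counts stand for 2 and 3 reads. The ratios of partners in a complex restate these values and add no further support. Timm10 to Timm9 per kilobase was 17.1 and 29.9 in mitochondrial replicates, compared with 5.04 and 3.15 in rest replicates, and Timm8b to Timm13 was 8.37 and 8.42 against 3.02 and 4.74. Neither ratio overlapped between the fractions, but Timm9 rests on 5 reads in each mitochondrial library. The size of such a ratio depends on the exon lengths used, whereas its change between the fractions does not. Without division by length, Timm10 to Timm9 was 3.26 and 5.69 in mitochondrial replicates, compared with 0.96 and 0.60 in rest replicates. Ratios were computed for 14 pairs of related genes chosen with earlier results known. Those of Timm23 to Timm50, Timm17a to Timm17b, Tomm40 to Tomm40l, Mtx2 to Mtx1 and Timm29 to Timm22 overlapped, and the others did not. An exact permutation test of 2 against 2 libraries cannot give any of these ratios a p below 0.333.

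At the inner membrane, the TIM22 carrier translocase had 0 of 2 genes past the test, where 2.16% of all genes tested were higher and 1.39% lower. Timm22, its channel, was at 62 and 26 normalized counts in the mitochondrial libraries against 26 and 24 in the rest libraries, so that mitochondrial replicate 2 tied with a rest library. Timm29, a subunit that links the translocase to the outer membrane, was at 97 and 79 against 63 and 68 (log2 fold change 0.41, adjusted p = 0.290 by limma).

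The TIM23 presequence translocase had 0 of 6 genes past the test, where 2.16% of all genes tested were higher and 1.39% lower. In 5 of 6, both mitochondrial libraries lay above both rest libraries, against 27.7% of all genes tested. Timm23, the channel-forming subunit, was at 186 and 138 normalized counts in the mitochondrial libraries against 69 and 58 in the rest libraries, with a log2 fold change of 1.33 and an adjusted p of 0.0588 by limma. Timm50, the receptor that takes over chains from the outer membrane, was at 62 and 48 against 25 and 20 (log2 fold change 1.25, adjusted p = 0.0785 by limma), from 16 and 19 mitochondrial reads. The ratio of Timm23 to Timm50 per kilobase was nearly the same in all libraries, with 4.51 and 4.32 in the mitochondrial and 4.15 and 4.36 in the rest libraries.

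Romo1, a small membrane protein of the translocase, had the largest log2 fold change of the 39 genes with all 4 libraries. It was at 209 and 74 normalized counts in the mitochondrial libraries, with 33 and 19 in the rest libraries. The fractions did not overlap, but the mitochondrial replicates were 2.82-fold apart, and the log2 fold change of 2.27 (SE 0.589) had an adjusted p of 0.0884 by limma. It was 1.52 without mitochondrial replicate 1, below Hspe1, Timm10, Timm8b, Timm8a1, Tomm7 and Tomm5, 1.88 without rest replicate 2, below Timm8b and Hspe1, and 3.01 without mitochondrial replicate 2, so that its first place rests on mitochondrial replicate 1 and rest replicate 2. Timm17a, a channel-lining subunit, was at 170 and 151 against 103 and 117, and its paralog Timm17b was at 35 and 10 against 10 and 13. The first kept clear of the rest libraries, whereas the second overlapped and rests on 9 and 4 reads in the mitochondrial libraries. Timm21, which couples the translocase to the TOM complex and to the respiratory chain, was at 66 and 77 against 40 and 45 (log2 fold change 0.74, adjusted p = 0.132 by limma).

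The import motor on the matrix side, with 7 genes, held 3 of the 6 genes that passed the test. Of all genes tested, 2.16% were called higher. Dnajc19, a J-protein that stimulates mortalin and is mutated in a human cardiomyopathy with ataxia, was at 194 and 163 normalized counts in the mitochondrial libraries, with 59 and 58 in the rest libraries. The gap between the fractions was wider than the spread within either, and the log2 fold change was 1.59 (SE 0.208, adjusted p = 0.0427 by limma). Its paralog Dnajc15 was at 159 and 138 against 60 and 57, with a log2 fold change of 1.33 (SE 0.208) and an adjusted p of 0.0497 by limma, at the edge of the threshold. The ratio of Dnajc19 to Dnajc15 per kilobase was 1.97 and 1.91 in the mitochondrial and 1.59 and 1.65 in the rest libraries.

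Grpel1, the nucleotide exchange factor of mortalin, was at 229 and 214 normalized counts against 96 and 92, with a log2 fold change of 1.23 (SE 0.182, adjusted p = 0.0471 by limma). Both of its replicate pairs were tight. Grpel2, the second exchange factor, was at 46 and 23 against 35 and 28, which overlaps (log2 fold change 0.06, adjusted p = 0.939 by limma). The ratio of Grpel1 to Grpel2 per kilobase was 9.54 and 17.8 in mitochondrial replicates, compared with 5.25 and 6.29 in rest replicates. Pam16, a J-like regulator of the motor, was at 46 and 31 against 20 and 13 (log2 fold change 1.18, adjusted p = 0.137 by limma), from 12 and 12 mitochondrial reads.

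Hspa9, which encodes mortalin, had the highest level per kilobase of the 39 mRNAs in both fractions. It was at 3230 and 2375 normalized counts in the mitochondrial libraries, with 1542 and 1628 in the rest libraries, from 834 to 5836 reads per library. The fractions did not overlap, and the log2 fold change was 0.81, with an adjusted p of 0.0934 by limma. Timm44, which docks mortalin at the channel, was at 236 and 268 against 135 and 134, with a log2 fold change of 0.90 and an adjusted p of 0.0623 by limma.

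Behind the motor, the mitochondrial processing peptidase cuts off the presequence. Its subunits showed small differences: Pmpca was at 221 and 202 normalized counts against 185 and 174, and Pmpcb at 283 and 240 against 207 and 205. In both, the mitochondrial libraries lay above the rest libraries, with log2 fold changes of 0.23 and 0.34 and adjusted p of 0.413 and 0.279 by limma. The ratio of Pmpcb to Pmpca per kilobase ranged only from 0.932 to 1.07 over the 4 libraries.

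The matrix chaperonin consists of Hsp60, the barrel encoded by Hspd1, and its lid Hsp10, encoded by Hspe1. Hspe1 was at 163 and 232 normalized counts in the mitochondrial libraries, with 50 and 62 in the rest libraries. All mitochondrial values lay above all rest values by a wide margin, and the log2 fold change was 1.79 (SE 0.271, adjusted p = 0.0484 by limma). Hspd1 was at 852 and 717 against 379 and 451, also without overlap, with a log2 fold change of 0.92 and an adjusted p of 0.0641 by limma. The ratio of Hspe1 to Hspd1 per kilobase was 0.343 and 0.580 in the mitochondrial and 0.236 and 0.246 in the rest libraries.

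Hspd1 and Hspe1 lie head to head on mouse chromosome 1 and share a promoter region that drives transcription in both directions, which is why the sequence between them is shown. It spans chr1:55088025-55088131 of GRCm38.p6, written on the plus strand towards Hspe1, between the first exons of the main transcripts, and lies inside an exon of another annotated Hspd1 transcript. Capitals mark 2 overlapping motifs, GAANNTTC, a pair of heat shock factor sites facing each other, at bases 40 to 47, and CCGGAAG, the core bound by ETS factors, at bases 47 to 53 and, on the other strand, at bases 44 to 50.
between Hspd1 and Hspe1: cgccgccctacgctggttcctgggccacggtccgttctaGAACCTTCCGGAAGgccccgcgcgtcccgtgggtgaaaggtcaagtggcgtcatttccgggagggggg

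For the whole group, RefSeq promoter windows on GRCm38.p6 from 250 bases before to 50 bases after the start were matched for 34 of the 39 genes, all but Grpel2, Hspa9, Timm21, Tomm40l and Tomm7. Both strands were searched. CCGGAAG occurred in 17 of the 34 (50%), against 20.6% of 8432 tested nuclear protein-coding genes and 9.93% of all 27025 genes with a window. The 17 genes with the motif and the 17 without it had median log2 fold changes of 0.92 and 0.88. GAANNTTC occurred in 3 of 34 (8.82%, against 6.93% and 9.04%), namely Hspd1, Hspe1 and Timm9. The stretch between Hspd1 and Hspe1 printed above holds a single GAANNTTC, so the matches of both genes can be the same site. The same holds for their matches of CCGGAAG. GCATGCGC, the core of NRF1 sites, occurred in Grpel1 and Timm13 (5.88%, against 6.2% and 3.05%), and CCAAT in 9 of 34 (26.5%, against 42.7% and 41.1%). A match describes the letters of the window and no binding.

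The order of the mRNA levels was much alike in the 2 fractions when counted per kilobase of exon. Hspa9 led with 650 ± 140 normalized counts per kilobase in mitochondrial and 368 ± 14.1 in rest libraries (SD over 2 libraries each), followed by Hspd1 with 297 ± 36.1 and 157 ± 19.3 and Timm8b with 233 ± 42.3 and 56.0 ± 13.7. All ranks here hold for the union of exons, which for some genes is far longer than the annotation's main transcript. It spans 4027 against 659 bases in Dnajc19, 5141 against 1615 in Pmpcb and 4282 against 990 in Timm9. With the transcript length the order of genes would differ, also for the place of Timm8b. Below these 3 genes the ranks shifted between the fractions. Romo1 had rank 4 in the mitochondrial fraction at 189 ± 128 and rank 11 in the rest fraction at 34.8 ± 13.3, whereas Gfer had rank 4 in the rest fraction at 42.6 ± 8.87 and rank 16 in the mitochondrial fraction at 41.9 ± 0.317. In the rest fraction, the levels per kilobase of Gfer, Pmpca (41.9 ± 1.82), Pmpcb (40.1 ± 0.275), Hspe1 (38.0 ± 5.76), Timm44 (36.7 ± 0.193), Tomm7 (36.0 ± 0.629), Timm23 (35.6 ± 4.36) and Romo1 followed one another in such small steps that most neighbours did not differ beyond their spread. The lowest levels per kilobase in the rest fraction were those of Tomm40l (2.34), Mtx1 (3.35) and Timm10b (3.49). Across the 39 genes, log2 levels per kilobase in the fractions had a Pearson r of 0.930, a description over genes that share libraries and lengths.

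**Figure D3:**
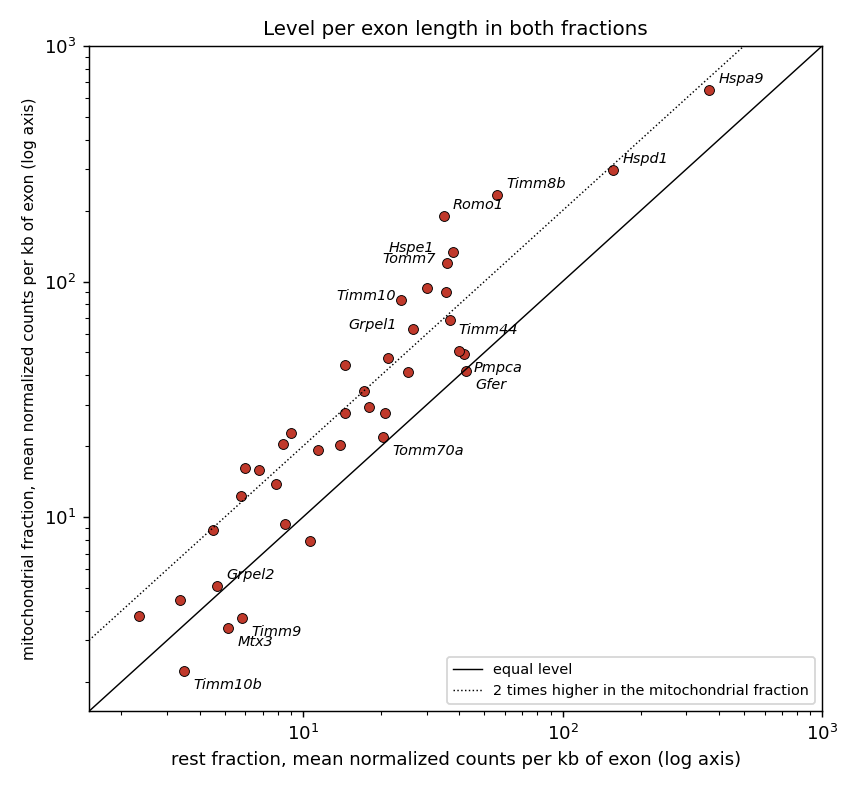
Mean normalized counts per kilobase of exon of the 39 genes in the rest fraction (x) and the mitochondrial fraction (y), both on log axes. Points above the solid line are higher in the mitochondrial fraction as scaled by the authors. Romo1, Timm8b, Hspe1 and Tomm7 are among the genes above the dotted line of a 2-fold difference. Timm9, Timm10b, Mtx3, Tomm34 and, by a small margin, Gfer lie below the solid line.

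Replicates agreed less well in the mitochondrial fraction. The median fold between the mitochondrial libraries over the 39 genes was 1.29 and between the rest libraries 1.11. In 8 genes (Mtx1, Tomm40l, Timm17b, Romo1, Timm22, Tomm22, Tomm34 and Timm8a1) the mitochondrial libraries differed by more than 2-fold, and in 0 genes the rest libraries did, with 1.74-fold as the highest value. Under 20 reads stood behind the value of 18 genes in at least 1 mitochondrial library, while the lowest value in a rest library came from 26 reads. Differences of the low genes, such as Tomm40l, Mtx1, Timm10b and Timm17b, were not detectable at this depth.

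The genes with short coding sequences had the larger differences. Of the 12 genes with a coding sequence of up to 400 bases, 4 were higher past the test (Tomm7, Timm8b, Hspe1 and Dnajc19), 10 (83.3%) lay above both rest libraries, and the median log2 fold change was 1.60. Of the 17 genes of over 400 and up to 1000 bases, 2 passed (Dnajc15 and Grpel1), with a median of 0.68, and of the 10 genes over 1000 bases 0 passed, with a median of 0.50. Length moved with the difference over all nuclear protein-coding genes as well. Among 491 such genes of up to 400 bases 17.5% were higher past the test, 69.2% lay above both rest libraries and the median was 1.02, among 2589 of over 400 and up to 1000 bases 3.67% were higher with a median of 0.31, and among 7519 longer ones 0.293% were higher with a median of -0.32. In each class the median of the import and chaperone genes lay above that of all nuclear protein-coding genes, by 0.59, 0.37 and 0.83 on the log2 scale. Pearson's r between log2 fold change and log2 coding length was -0.47 over the 39 genes and -0.40 over 10599 nuclear protein-coding genes (Spearman's rho -0.52 and -0.43), a description across genes that share the libraries. The part of length in the differences of single genes was not tested.

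**Figure D4:**
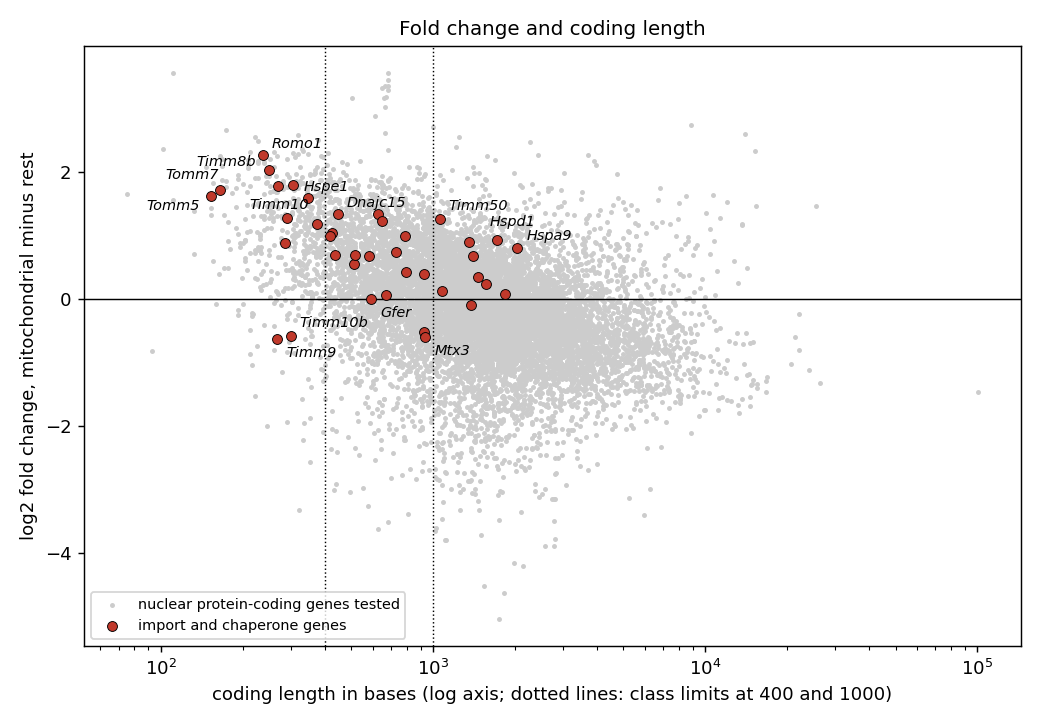
Log2 fold change, mitochondrial minus rest, against coding length in bases (log axis) for the 39 genes (red) and all tested nuclear protein-coding genes (grey). Short genes lie higher in both sets, and the long members Hspa9, Hspd1 and Timm50 still lie above 0 as scaled by the authors, while Timm9 and Timm10b are short and lie below 0.

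Other genes of the pathway were taken from a list of 37 genes for insertases, prohibitins, cristae proteins, proteases, further chaperones and a few related genes, of which 36 were tested. In this list 2 were higher past the test and 0 lower (2.16% and 1.39% of all genes tested), with 9 higher and 1 lower at an unadjusted p under 0.05 (14.1% and 16.2% of all genes tested), and the median log2 fold change was 0.47. Chchd3, a subunit of the MICOS complex that shapes cristae and touches the SAM complex, was at 829 and 788 normalized counts in the mitochondrial and 329 and 352 in the rest libraries (log2 fold change 1.25, adjusted p = 0.0427 by limma). Apoo, another MICOS subunit, was at 221 and 181 against 74 and 73 (log2 fold change 1.43, adjusted p = 0.0469 by limma). Both kept well clear of the rest libraries. The calls needed all 4 libraries, as did those of every other gene tested.

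Cytosolic chaperones and cochaperones of several families were compared as a list of 28 names, of which 27 were in the table and tested. Only Bag1, a cofactor of Hsp70, passed, at 999 and 796 normalized counts in the mitochondrial and 212 and 248 in the rest libraries (log2 fold change 1.95, adjusted p = 0.0427 by limma). Its call, like every other, was lost with any library left out. None of the list was lower past the test, where 2.16% of all genes tested were higher and 1.39% lower. At an unadjusted p under 0.05, 14 were higher and 0 lower, against 14.1% and 16.2% of all genes tested. In 20 of 27 genes both mitochondrial libraries lay above both rest libraries, against 27.7% of all genes tested, and the median log2 fold change was 0.55. Higher values in the mitochondrial fraction were thus also measured for chaperones that work in the cytosol, and a difference between the lists was not tested.

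Some of the genes share sequence with neighbours or copies, and whether strand was used in the counting is not given in the sources used here. Dnajc19 overlaps exons of Fxr1 on the opposite strand, which was at 600 and 620 normalized counts in the mitochondrial and 465 and 544 in the rest libraries. Hspd1 and Hspe1 overlap each other by 112 bases. Exons of Timm8b (with Nkapd1), Romo1 (Nfs1), Grpel1 (Tada2b), Timm10b (Arfip2), Pam16 (Glis2), Pmpca (Inpp5e), Tomm70a (Nit2), Timm29 (Yipf2) and Mtx1 (Thbs3) also overlap a gene listed on the opposite strand. Reads on 2 genes or on several places in the genome were excluded by the authors, so that values of genes with close copies are uncertain. The pseudogene Hspd1-ps3 was at 147 and 125 normalized counts against 45 and 54, Hspa9-ps1 at 4 and 5 against 5 and 5, and the 6 annotated pseudogenes of Hspe1 were not analysed here.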

How the data were processed

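Values for 4 libraries of WT mouse heart, 2 per fraction by title and treatment label, came from a single table. The authors used Trimmomatic 0.39 for trimming, STAR 2.7.10a for alignment to mm10, featureCounts 2.0.2 for reads on exons and DESeq2 1.30.1 to compare fractions (versions as in the submitters' processing notes; the methods text names other versions of all but Trimmomatic). The deposited signal, here called normalized count, was made by the authors by dividing each gene's reads by the size factor of a library and rounding. Whole reads could not be restored in the rest libraries, where rounding hides single reads, and no count test was run and read numbers there are approximate. Reads on genes, in units of 1e6, came to about 47.3, 32.1, 26.3 and 23.5 in mitochondrial replicates 1 and 2 and rest replicates 1 and 2.

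Genes with 10 or more normalized counts in 2 or more libraries (12150) were fitted with limma 3.58.1 (R 4.3.3; mean-variance trend) on log2(normalized count + 1), and p-values were adjusted by Benjamini-Hochberg over all of them. On data simulated for 11638 genes, 46.0% of 198 genes changed 4-fold were called, with 0 false calls. The simulation left out the mitochondrial chromosome and gave every gene and library the same dispersion. The real mitochondrial replicates agreed less well than the rest replicates, so that these rates need not hold for them. Positions, exon and coding lengths came from GENCODE M21, with the table's position for all 39 genes. Levels per kilobase used the union of exons, and coding lengths the main transcript. All members were named, and of other genes those past the test in the lists and those overlapping a member. Members, gene lists, gene pairs and length classes were chosen with earlier results of these data known. The alternatives were 3 other scalings, pseudocounts of 0.1 and 10, no filter and a mean above 50, the replicate block, the fit without trend and each library left out.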

Additional observations from a re-analysis of the deposited data

How the results depend on the processing

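With 2 libraries per fraction the calls depend on the settings. The group's median log2 fold change exceeded that of all genes tested by 0.64 to 1.15 under every alternative. At least 33 of 39 genes (23 of 23 with a mean above 50) lay above the median gene. Much of this was fixed in advance. A scaling shifts all genes by nearly the same amount, and the replicate block and the fit without trend keep the fold changes. The excess was 0.64 without mitochondrial replicate 1 and 1.15 without mitochondrial replicate 2. The number of the 39 called higher, 6 as reported, was 0 relative to each library's total less the mitochondrial chromosome, 0 relative to the library total, 11 with scaling to the upper quartile, 0 with a pseudocount of 0.1, 9 with 10, 6 without a filter (Hspe1 lost, Tomm5 gained), 12 of 23 with a mean above 50, 0 without the mean-variance trend, and 0 to 0 with each library left out, where a lone library is assumed to vary like the others. For the first 2 scalings 2 and 39 were lower and the medians were -0.059 and -3.06. With a pseudocount of 0.1, 0 of all 12150 genes were called and 20 of the 39 were higher at an unadjusted p under 0.05. Pathway genes called higher, 2 as reported, were 0, 0, 4, 0, 4 and 0 under the total without the mitochondrial chromosome, the library total, the upper quartile, the pseudocount of 0.1, the mean above 50 and no trend, with 4 and 36 lower under the first 2, and 0 to 0 higher with a library left out. Cytosolic chaperones called higher, 1 as reported, were 0 under the library total (27 lower), 7 under the upper quartile, 0 and 5 with pseudocounts of 0.1 and 10, 8 with a mean above 50, 4 with the replicate block, 0 without the trend and 0 to 0 with a library left out. The cause of these shifts was not tested.

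The replicate number as a block raised the calls of the 39 from 6 to 9 by adding Romo1, Timm23 and Tomm5, and those of all genes from 262 higher and 169 lower to 470 and 309. No source says that equal numbers share a heart, and the replicate differences of the fractions had an r of 0.130 across genes.

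Relative to the total without the mitochondrial chromosome these log2 fold changes turned negative: Tomm20 -0.17, Tomm70a -0.78, Tomm40 -0.72, Tomm40l -0.41, Samm50 -0.19, Timm22 -0.17, Timm29 -0.44, Timm17a -0.32, Timm17b -0.12, Timm21 -0.11, Grpel2 -0.78, Hspa9 -0.059, Pmpca -0.63 and Pmpcb -0.52. Relative to the library total these did: Tomm20 -3.25, Tomm22 -2.87, Tomm70a -3.88, Tomm40 -3.73, Tomm40l -3.29, Tomm5 -2.27, Tomm7 -2.21, Mtx2 -2.94, Samm50 -3.30, Chchd4 -2.89, Timm10 -2.08, Timm13 -2.94, Timm8a1 -2.36, Timm8b -1.89, Timm22 -3.18, Timm29 -3.51, Romo1 -1.64, Timm17a -3.41, Timm17b -3.02, Timm21 -3.16, Timm23 -2.62, Timm50 -2.61, Dnajc15 -2.61, Dnajc19 -2.36, Grpel1 -2.73, Grpel2 -3.78, Hspa9 -3.18, Pam16 -2.64, Timm44 -3.06, Pmpca -3.72, Pmpcb -3.63, Hspd1 -3.06 and Hspe1 -2.16. Gfer turned to 0.040 under the upper quartile and Mtx1 to 0.070 with a pseudocount of 10. With each library left out the sign changed for Tomm70a (-0.16 to 0.32), Tomm40 (-0.00039 to 0.26), Tomm40l (-0.53 to 1.30), Tomm34 (-1.07 to 0.022), Mtx1 (-1.37 to 1.16), Gfer (-0.22 to 0.20), Timm17b (-0.17 to 1.54) and Grpel2 (-0.43 to 0.54). Mitochondrial libraries limit precision, since 3 reads reach 11.6 and 7.65 normalized counts there.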
